A study of Mus musculus with 24 samples.

Results

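Livers of male C57BL/6 mice on a high-fat diet are described here, 3 libraries labelled Cyp2b9/10/13-null (labelled null below) against 3 labelled wild type (WT). These 6 of the 24 libraries of the series were chosen by their titles alone, with no measured value. Both groups ate a diet with 60% fat for 10 weeks, so the diet is shared and the labels of the groups differ in genotype alone. The series also holds males of both genotypes on normal chow and females of both genotypes on either diet, 3 libraries per group. Total RNA from whole liver was sequenced, and each value is the number of reads counted for a gene symbol. The stated purpose was to examine how Cyp2b bears on obesity caused by the diet.

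The Cyp2b genes encode cytochrome P450 monooxygenases of the endoplasmic reticulum, which oxidise drugs, steroids and polyunsaturated fatty acids. In mouse liver they are induced through the nuclear receptors CAR and PXR, and Cyp2b9 and Cyp2b13 are expressed mainly in females. Much of the sex difference in liver P450 expression follows the pattern of growth hormone secretion. Growth hormone acts through its receptor, the kinase JAK2 and the transcription factor STAT5B. STAT5B induces its own inhibitors, the SOCS proteins Socs2 and Cish, and represses Bcl6, a repressor that competes for STAT5 sites.

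The 6 libraries held 10531009 to 20176050 counts, and mitochondrial transcripts took 4.62 to 7.76% of them. Pairs of the 6 correlated at Spearman's rho of 0.964 to 0.986 across genes. No pair matched within sampling noise, with a chi-square per degree of freedom of at least 24.89. The pair with the highest rho was WT 3 with labelled null 1, across the groups. The main axis of variation, with 32.3% of the variance, did not follow the labelled genotype. It set WT 1, WT 2 and labelled null 3 against WT 3, labelled null 1 and labelled null 2. The third axis, with 18.4% of the variance, parted the groups. WT 1 to 3 lay at 12.47, 15.85 and 23.27 on it, and labelled null 1 to 3 at -6.91, -14.76 and -29.92. Separate animals behind the libraries are not stated in the labels, so every p-value measures the spread between these libraries, which may be technical.

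The targeted genes were checked before all others. Cyp2b9 (chr7:26173411-26210661, GRCm38, plus strand) had 354, 48 and 797 counts in WT 1 to 3 and 36, 85 and 19 in labelled null 1 to 3. Cyp2b10 (chr7:25897620-25926624) had 7, 15 and 14 counts in WT and 7, 26 and 5 in labelled null, under the filter on low counts. Cyp2b13 (chr7:26061497-26096197) had 50, 40 and 85 counts in WT and 64, 37 and 45 in labelled null. All 3 genes were thus counted in every library labelled null, and the groups overlapped at each of them. The fitted difference, labelled null minus WT on the log2 scale, was -2.60 for Cyp2b9 (95% interval -4.93 to -0.28, edgeR adjusted p = 1) and -0.04 for Cyp2b13 (-0.62 to 0.54, edgeR adjusted p = 1).

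Female libraries on the same diet gave a different picture at the same genes. By their titles, the 3 female null libraries held 0 counts of Cyp2b13 where the 3 female WT libraries held 2288, which is at least 766-fold lower against a floor of 3 counts over the group (counting error only). They held 6 counts of Cyp2b9 against 2892 and 4 of Cyp2b10 against 129. These female libraries were extracted and prepared with other kits and were shallower, at 2243875 to 2661836 counts.

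**Figure D1:**
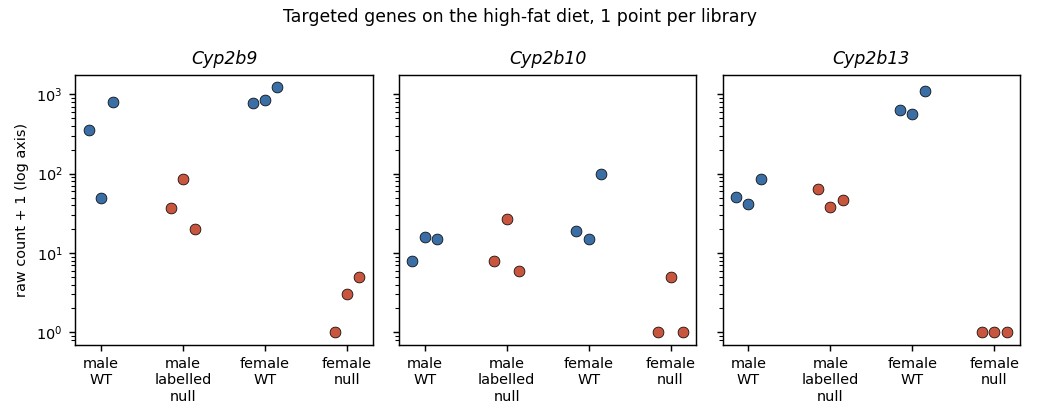
Raw counts plus 1 (log axis) of Cyp2b9, Cyp2b10 and Cyp2b13 in each library on the high-fat diet, by sex and labelled genotype, 1 point per library. Male libraries of both labels overlap for all 3 genes, while female null libraries lie far below female WT libraries for Cyp2b9 and Cyp2b13.

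The male Cyp2b13 counts followed those of a pseudogene inside the gene. Rnf170-ps, a processed pseudogene at chr7:26072073-26072931 (GRCm38, plus strand), lies in an intron of Cyp2b13, with 0 of its bases in an annotated Cyp2b13 exon. Its counts were 64, 37 and 45 in the labelled null males, the same numbers as those of Cyp2b13 in all 3 libraries. In WT males they were 46, 39 and 82, which is 4, 1 and 3 counts below Cyp2b13. In the female libraries on this diet Rnf170-ps had 0 counts, so there the Cyp2b13 counts were not matched by it. The pseudogene was looked at after its values were seen, and why the rows share counts was not tested. Beyond this shared number, the labelled null males on this diet had 0, 0 and 0 counts of Cyp2b13, and WT males 8 in all. On normal chow the order was the reverse, with 0, 0 and 0 such counts in WT males and 3, 2 and 4 in males labelled null. In each case 0 counts allow up to 3 over the group.

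On the high-fat diet Cyp2b9 differed from that pattern, since none of its labelled null libraries was at 0. On normal chow the order of the groups was the reverse for Cyp2b9 as well. It had 1, 2 and 4 counts in WT males and 24, 29 and 59 in males labelled null. Reads of Cyp2b9, Cyp2b10 and Cyp2b13 can be split between these close paralogues, so single counts at this level are uncertain. The genotype label of the male libraries is therefore not settled by the targeted genes, and the group is called labelled null throughout.

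Across the transcriptome 14161 genes passed the filter and 3 of them, 0.0212%, passed edgeR's quasi-likelihood test at an adjusted p under 0.05. Nat8f5 rose, which is 0.00706% of genes, and Socs2 and the long noncoding RNA Gm36041 fell, which is 0.0141%. At an unadjusted p under 0.05 there were 647 genes or 4.57%, of which 399 were higher and 248 lower in labelled null. Libraries of the groups did not overlap at 1157 genes or 8.17%, of which 643 (4.54%) were higher and 514 (3.63%) lower. With 3 libraries per group, such separation can also arise without a difference, so it is no evidence by itself here or below. DESeq2 called 56 genes, 40 higher (0.282%) and 16 lower (0.113%), or 0.395% in all, and all 3 of edgeR's calls were among them. The count of edgeR's calls changed when a library was left out, which also leaves fewer libraries for the test. It was 0 without WT 1, without WT 2, without labelled null 2 or without labelled null 3, it was 1 without labelled null 1, and it was 5 without WT 3.

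Nat8f5 (chr6:85817218-85820972, minus strand) belongs to the Nat8 family of N-acetyltransferase-like membrane proteins of the endoplasmic reticulum. Its level was 4.86, 5.96 and 2.64 CPM (counts scaled to library size with TMM factors) in WT 1 to 3 and 19.5, 23.5 and 35.04 CPM in labelled null 1 to 3. Every labelled null library was thus above every WT library. The difference was 2.56 ± 0.32 (log2, SE, edgeR adjusted p = 0.0404), from 4.49 ± 1.69 to 26.0 ± 8.09 CPM (SD, n = 3 each). Over 13 alternative settings it kept its direction at 2.27 to 2.82, with adjusted p from 3.59e-19 to 0.878, and it passed in 6 of them.

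Other members of the Nat8 cluster on chromosome 6 were read beside it. Nat8f6, whose annotated span includes most of Nat8f5, had 4, 1 and 6 counts in WT and 23, 12 and 16 in labelled null (2.41 ± 0.50, edgeR adjusted p = 0.198). Nat8 (chr6:85830388-85832082, minus strand) averaged 9.38 ± 3.35 CPM in WT and 23.1 ± 8.20 CPM in labelled null (1.30 ± 0.30, edgeR adjusted p = 0.323). Nat8f1, Nat8f2 and Nat8f4 were at 0.15 ± 0.24, 0.16 ± 0.20 and 0.25 ± 0.21, with overlapping libraries. Reads of such close copies, and of overlapping genes, can be shared between them, so the Nat8f5 and Nat8f6 values are not independent.

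Socs2 (chr10:95385362-95417180, minus strand) encodes the feedback inhibitor of growth hormone receptor signalling. Its level was 37.5, 29.8 and 59.9 CPM in WT and 8.36, 11.7 and 7.23 CPM in labelled null, with no overlap. It fell by 2.23 ± 0.28 on the log2 scale (SE, edgeR adjusted p = 0.0404), from 42.4 ± 15.6 to 9.10 ± 2.34 CPM (SD, n = 3 each). Over 13 alternative settings its log2 difference lay between -2.43 and -1.89, with adjusted p from 3.59e-19 to 0.878, and it passed in 5 of them.

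Gm36041 (chr10:122386892-122435033, plus strand) is annotated as a long intergenic noncoding RNA and lies outside the rule for named genes; it was chosen after its values were seen. It was at 15.5, 17.2 and 12.9 CPM in WT and 5.01, 3.36 and 4.06 CPM in labelled null. It fell by 1.86 ± 0.24 (log2, SE, edgeR adjusted p = 0.0404), and its libraries did not overlap.

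**Figure D2:**
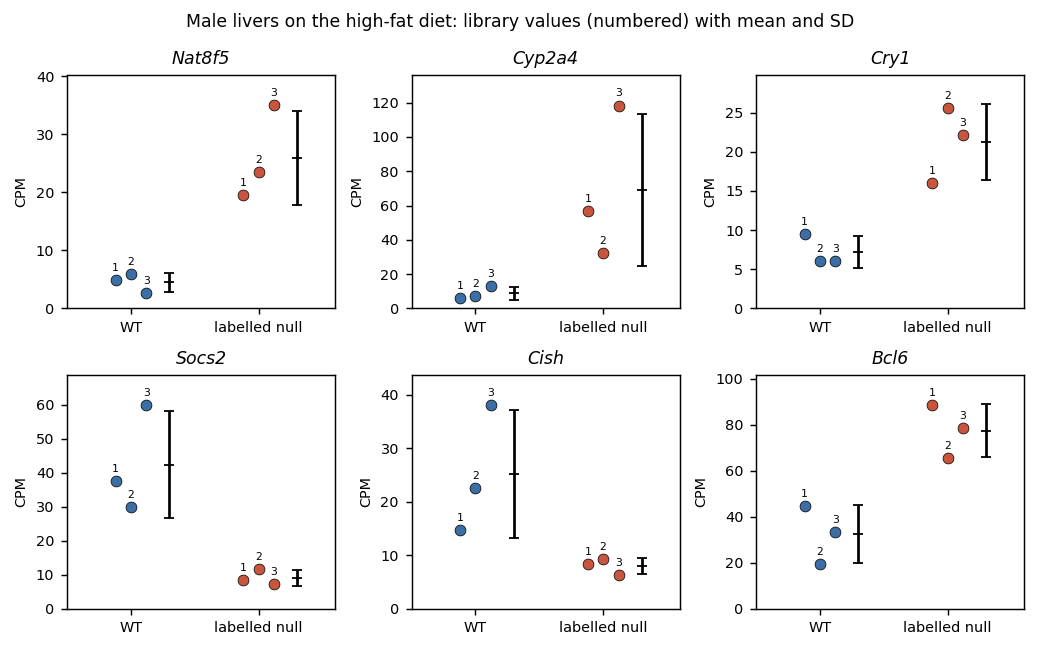
CPM of 6 genes in the 3 WT and 3 labelled null male libraries on the high-fat diet, numbered by library, with the group mean and SD beside the points. Nat8f5, Cyp2a4, Cry1 and Bcl6 are higher in every labelled null library and Socs2 and Cish lower, but only Nat8f5 and Socs2 passed edgeR's test.

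The growth hormone and STAT5 list was lower on balance in labelled null, with 1 member past the test. Of 19 measured members 4 were above 0 and 15 below, and the median difference was -0.30, beside a median of -0.02 over all genes, of which 47.5% were above 0 and 52.5% below. The median lay between -0.37 and -0.18 over the alternatives. At an unadjusted p under 0.05 were 2 higher and 5 lower members, beside 2.82% and 1.75% of all genes. Among the inhibitors induced by STAT5, Cish was at 14.7, 22.5 and 38.2 CPM in WT and 8.41, 9.27 and 6.34 CPM in labelled null. It was lower in every labelled null library without passing the test (-1.65 ± 0.32, edgeR adjusted p = 0.175, DESeq2 adjusted p = 0.000813). Socs3, a related inhibitor that cytokines induce, was at -0.91 ± 0.40 with overlapping libraries (edgeR adjusted p = 1).

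Transcription factors of the same list had differences of either sign. Bcl6 was at 44.6, 19.5 and 33.2 CPM in WT and 88.5, 65.5 and 78.5 CPM in labelled null, without overlap (1.25 ± 0.27, edgeR adjusted p = 0.240, DESeq2 adjusted p = 0.00401). Onecut1, a hepatocyte factor that growth hormone induces, was at 56.0, 69.4 and 115 CPM in WT and 16.5, 30.5 and 5.94 CPM in labelled null (-2.18 ± 0.57, edgeR adjusted p = 0.638). Stat5a was at 0.75 ± 0.23 and Stat5b at 0.21 ± 0.17 (edgeR adjusted p = 0.638 and 1). Bcl6 and Cish lay on opposite sides of 0, and neither passed edgeR's test. Major urinary protein genes, which growth hormone also induces, were above 0 in 17 of 20. The activity of STAT5 was not tested.

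The receptor and the secreted products given next did not pass edgeR's test. Lifr, a receptor of the interleukin 6 family, was at -0.80 ± 0.26 with no overlap (edgeR adjusted p = 0.689). Igf1, the growth factor by which liver relays growth hormone, was at 597, 781 and 589 CPM in WT and 472, 559 and 605 CPM in labelled null, and its groups overlapped (-0.27 ± 0.21, edgeR adjusted p = 1). Igfals, which stabilises Igf1 in plasma, was at -0.47 ± 0.27 (edgeR adjusted p = 1). Bcl6, Onecut1, Stat5a and Lifr were named after their values were seen.

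Promoters of 4 genes on which these comparisons turn are shown as the 250 bases before the annotated start, so that the letters can be read beside the levels. They are from RefSeq on GRCm38.p6, 5′ to 3′ on the strand of the gene: Nat8f5 at chr6:85820973-85821222 (minus), Cish at chr9:107296409-107296658 (plus), Bcl6 at chr16:23988853-23989102 (minus, 1 of 2 windows for this gene) and Cry1 at chr10:85185055-85185304 (minus). Capitals mark matches to the STAT5 motif TTCNNNGAA, the clock E-box CACGTG and the nuclear receptor core AGGTCA or its reverse complement TGACCT, searched on both strands.
Nat8f5: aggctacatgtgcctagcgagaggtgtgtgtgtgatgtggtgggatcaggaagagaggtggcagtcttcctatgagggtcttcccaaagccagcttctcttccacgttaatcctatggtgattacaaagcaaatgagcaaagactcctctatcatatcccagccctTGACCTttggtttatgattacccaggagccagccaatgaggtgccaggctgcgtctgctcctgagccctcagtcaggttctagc
Cish: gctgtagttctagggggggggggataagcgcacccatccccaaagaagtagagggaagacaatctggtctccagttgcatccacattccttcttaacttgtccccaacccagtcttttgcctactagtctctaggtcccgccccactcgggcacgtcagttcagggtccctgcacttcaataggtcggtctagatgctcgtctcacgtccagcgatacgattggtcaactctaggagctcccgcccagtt
Bcl6: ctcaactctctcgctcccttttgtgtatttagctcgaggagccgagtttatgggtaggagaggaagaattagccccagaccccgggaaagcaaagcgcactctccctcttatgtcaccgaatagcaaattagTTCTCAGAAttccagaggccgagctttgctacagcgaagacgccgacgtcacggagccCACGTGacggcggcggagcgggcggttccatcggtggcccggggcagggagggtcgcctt
Cry1: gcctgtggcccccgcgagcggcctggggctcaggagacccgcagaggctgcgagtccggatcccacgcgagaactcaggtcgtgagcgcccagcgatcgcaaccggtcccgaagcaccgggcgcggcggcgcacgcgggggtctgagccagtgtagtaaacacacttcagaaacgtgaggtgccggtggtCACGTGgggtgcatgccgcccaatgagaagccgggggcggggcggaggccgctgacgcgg

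The Bcl6 window held a STAT5 match 118 bases and an E-box 60 bases before the start. The Cry1 window held an E-box 60 bases and the Nat8f5 window a nuclear receptor core 84 bases before it, and the Cish window held none of the 3. In GENCODE, however, Cish spans chr9:107296026-107302784, so its RefSeq window lies inside that span. The bases before the GENCODE start of Cish are not shown. Of 32851 promoter windows of this length, 7.02% held the STAT5 motif, 6.02% the E-box and 14% the nuclear receptor core. In the growth hormone list 4 of the 19 members with a window held the STAT5 motif in any of their windows. In the clock list 5 of 19 held the E-box and 4 of 19 the nuclear receptor core. These are counts of genes, which can have several windows, while the shares above are of single windows. A match is a description of the letters and no measurement of binding, and the promoter of Socs2 was not printed.

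Of 22 measured genes of the circadian clock, 0 passed edgeR's test. The negative limb of the clock includes Cry1, a cryptochrome that represses CLOCK and BMAL1; it was at 9.56, 6.06 and 6.06 CPM in WT and 16.0, 25.5 and 22.2 CPM in labelled null. The groups did not overlap (1.55 ± 0.26, edgeR adjusted p = 0.145).

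Nr1d1, the haem-binding repressor REV-ERB alpha, was at 192, 76.0 and 140 CPM in WT and 59.4, 19.1 and 25.8 CPM in labelled null, with no overlap (-1.96 ± 0.49, edgeR adjusted p = 0.569). Dbp, a transcription factor driven directly by the clock, was at 169, 136 and 221 CPM in WT and 122, 53.9 and 84.4 CPM in labelled null, also with no overlap (-1.01 ± 0.29, edgeR adjusted p = 0.583). Per2 was at 0.66 ± 0.20 and Arntl, which encodes BMAL1, at 0.53 ± 0.34 (edgeR adjusted p = 0.638 and 1). In the list 15 genes were above 0, with a median of 0.25 that was 0.10 without labelled null 1. At an unadjusted p under 0.05 were 3 higher and 3 lower of the 22, beside 2.82% and 1.75% of all genes, and DESeq2's calls included Cry1. The time of day at which livers were taken is not in the labels, so its part was not tested. Nr1d1 and Per2 were named after their values were seen.

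**Figure D3:**
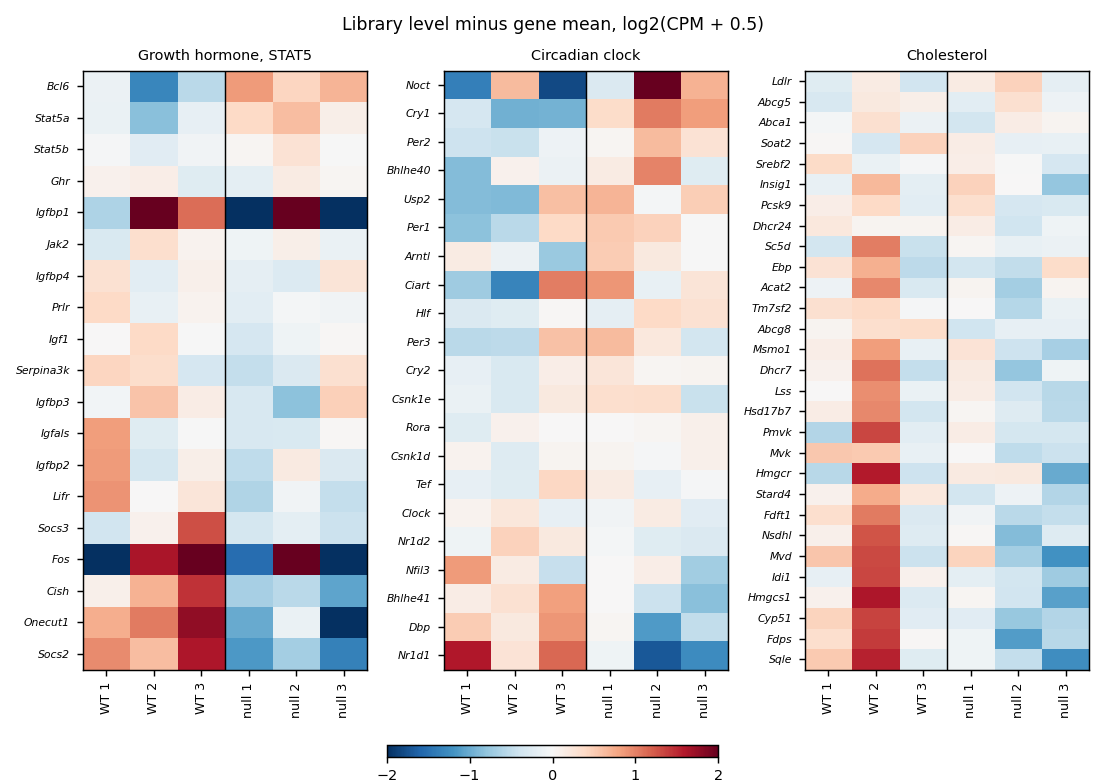
Level of members of 3 gene lists in each male library on the high-fat diet, as log2(CPM + 0.5) minus the mean of the gene over the 6 libraries, with colours ending at 2; the vertical line parts WT from labelled null. Socs2, Cish and Nr1d1 are above their mean in the WT libraries and below it in the labelled null ones, and many cholesterol genes stand highest in WT 2.

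A rule named 24 genes, 12 in each direction, with no overlap between groups and the smallest p among well-measured, characterised genes, and 2 of them passed edgeR's test. DESeq2 called all 12 of the higher and 8 of the lower ones. Their choice by p fixes their direction, so the values below describe them. The higher ones ran from 0.98 to 2.56, and the 11 that did not pass had edgeR adjusted p of 0.144 to 0.145. The lower ones ran from -2.23 to -0.71, and the 11 that did not pass had edgeR adjusted p of 0.172 to 0.488.

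Several of the higher genes act in metabolism or hormone response. Ppp1r3b, the liver subunit that brings protein phosphatase 1 to glycogen, was at 203, 309 and 211 CPM in WT and 545, 505 and 648 CPM in labelled null (1.23 ± 0.22). Acot11, an acyl-CoA thioesterase, averaged 8.67 ± 1.70 CPM in WT and 21.3 ± 3.76 CPM in labelled null. Esr1, the oestrogen receptor alpha, was at 16.4 ± 1.70 and 35.4 ± 7.32 CPM. Tsku, a secreted hepatokine, was at 132 ± 47.1 and 412 ± 99.3 CPM. None of these had overlapping libraries, as the rule required.

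The remaining higher genes encode channels, matrix and adaptor proteins. Col27a1, a fibrillar collagen, averaged 82.6 ± 28.3 CPM in WT and 290 ± 109 CPM in labelled null, while Kcnk5, a potassium channel, was at 47.3 ± 8.94 and 118 ± 24.5 CPM. Sema5b, a semaphorin, was at 3.79 ± 1.12 and 12.6 ± 1.99 CPM. Baiap2, an adaptor that bends membranes, was at 33.3 ± 8.5 and 88.3 ± 27.8 CPM, and Vac14, a scaffold of phosphoinositide synthesis, at 26.8 ± 3.15 and 52.9 ± 4.82 CPM. Tnnc1, the slow muscle and cardiac troponin C, was low in both, at 0.67 ± 0.35 and 3.62 ± 0.49 CPM.

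Among the lower genes, Chac1, a glutathione-degrading enzyme induced by the integrated stress response, was at 3.45, 3.38 and 6.85 CPM in WT and 0.86, 1.45 and 0.69 CPM in labelled null (-2.20 ± 0.42). Csad, which makes hypotaurine for taurine synthesis, was at 114 ± 4.59 and 60.3 ± 10.2 CPM. Abcd2, a peroxisomal importer of very long-chain acyl-CoA, was at 43.9 ± 6.53 and 26.8 ± 3.70 CPM. Klf9, a transcription factor induced by glucocorticoids, was at 130 ± 24.2 and 71.5 ± 13.2 CPM.

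Other lower genes were Smad9, a BMP signal transducer, at 28.2 ± 8.07 and 12.4 ± 3.87 CPM, and Adgrf1, an adhesion receptor, at 19.2 ± 5.08 and 6.95 ± 2.40 CPM. Clec2h, a C-type lectin-like gene, was at 8.70, 16.9 and 30.2 CPM in WT and 6.22, 4.45 and 4.26 CPM in labelled null. Its WT libraries were spread more widely than the labelled null ones. Tgm1 (a transglutaminase), Wdr45b (an autophagy protein) and Ncald (a neuronal calcium sensor) were at -1.02 ± 0.20, -0.80 ± 0.19 and -0.85 ± 0.21.

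**Figure D4:**
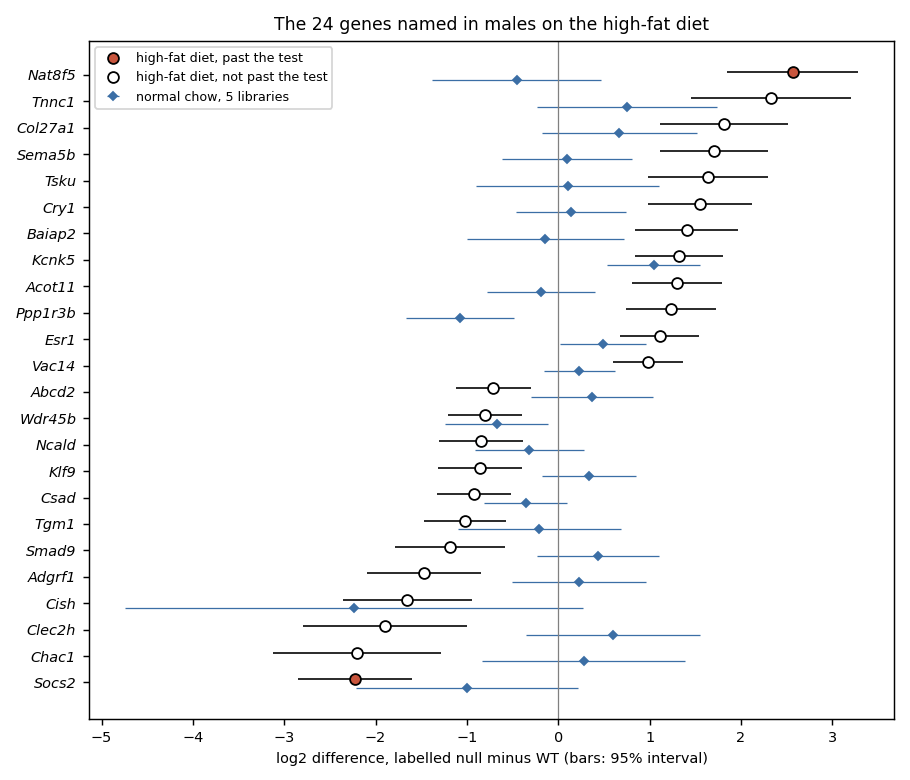
Log2 difference, labelled null minus WT, with its 95% interval for the 24 genes named in males, on the high-fat diet (circles; filled where the edgeR test was passed) and on normal chow with 5 libraries (diamonds). Nat8f5 and Socs2 are the 2 filled circles, and 10 of the 24 chow values lie on the other side of 0 from the high-fat values.

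Cyp2a4 stood apart among the P450 genes near the targeted cluster. It encodes a steroid hydroxylase that is high in females, and its gene lies at chr7:26307169-26315088 on the plus strand. Its level was 6.35, 7.05 and 13.1 CPM in WT and 56.6, 32.3 and 118 CPM in labelled null, with no overlap. The difference of 2.94 ± 0.53 did not pass edgeR's test (adjusted p = 0.258) and passed DESeq2's (adjusted p = 6.11e-10). Over 13 alternative settings it was 2.31 to 3.37, with adjusted p from 6.11e-10 to 0.699. Cyp2a5, a near-identical copy with which it can share reads, was at 947, 803 and 1809 CPM in WT and 1251, 1270 and 1438 CPM in labelled null, and overlapped (0.15 ± 0.29).

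Within 1 Mb of the span from Cyp2b10 to Cyp2b9 (chr7:24897620-27210661), 40 genes other than the targeted ones were tested and 0 passed edgeR's test. At an unadjusted p under 0.05 were 1 higher and 1 lower gene, 5% of the 40 beside 4.57% of all genes, and the median was -0.03. Cyp2f2, Cyp2a12 and Cyp2a22 were at 0.37 ± 0.30, 0.16 ± 0.25 and 0.45 ± 0.49, all with overlapping libraries.

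Male-biased and female-biased liver genes were counted apart. Of 34 measured male-biased genes 17 were above 0 and 17 below, with a median of 0.00 that ranged from -0.26 without WT 3 to 0.18 without labelled null 1. Of 30 measured female-biased genes 9 were above 0 and 21 below, with a median of -0.20 that ranged from -0.36 to -0.03 over the alternatives. Cyp2a4 was the member with the smallest p in the female list and Nat8f5, the 1 called member, in the male list. Major urinary protein genes, which growth hormone pulses induce in males, were above 0 in 17 of 20, with a median of 0.38. That median was 0.06 without WT 3, in which Mup1 was at 67.6 CPM beside 273 and 178 CPM in the other WT libraries. Mup genes are near-identical copies, so their counts are not independent.

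Genes of cholesterol synthesis and transport were mostly lower in labelled null. Of 29 measured, 27 were below 0, beside 52.5% of all genes, and the median was -0.55. Of these 8, all lower, had an unadjusted p under 0.05, beside 1.75% of all genes, and 0 passed the edgeR or DESeq2 test. Cyp51, the lanosterol demethylase, was at 220, 411 and 138 CPM in WT and 137, 95.1 and 108 CPM in labelled null (-1.18 ± 0.35, edgeR adjusted p = 0.638). Fdps, which makes farnesyl pyrophosphate, was at 161, 334 and 129 CPM in WT and 119, 58.4 and 86.1 CPM in labelled null (-1.24 ± 0.38, edgeR adjusted p = 0.638). WT 2 was the highest library for both, and without it the median of the list was -0.23. Srebf1, the lipogenic transcription factor, was on the other side of 0, at 237, 402 and 209 CPM in WT and 494, 500 and 739 CPM in labelled null (1.03 ± 0.28, edgeR adjusted p = 0.528).

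Genes of fatty acid synthesis and of polyunsaturated fatty acid metabolism, the substrates of the Cyp2b enzymes among them, had 0 members past edgeR's test. Of 31 measured synthesis genes 12 were above 0, with a median of -0.16 that turned to 0.27 without WT 2. Aacs, which activates acetoacetate for lipid synthesis, was at 151, 314 and 233 CPM in WT and 126, 127 and 106 CPM in labelled null (-0.96 ± 0.25, edgeR adjusted p = 0.501). Of 40 measured genes of polyunsaturated fatty acid metabolism 15 were above 0, with a median of -0.14 and a range of -0.28 to 0.03 over the alternatives, above 0 without WT 2. Ptges, a prostaglandin E synthase, was at 0.39, 0.40 and 0.56 CPM in WT and 2.07, 2.73 and 2.08 CPM in labelled null (2.28 ± 0.39, edgeR adjusted p = 0.145, DESeq2 adjusted p = 0.0108). Cyp4a14, an omega-hydroxylase induced by PPARA, was at 843, 348 and 936 CPM in WT and 290, 280 and 427 CPM in labelled null, and the groups overlapped (-1.09 ± 0.34, edgeR adjusted p = 0.638).

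Fatty acid oxidation, storage and transport showed single members at low p. Of 50 measured genes of oxidation and PPARA response 19 were above 0, with a median of -0.14 that was -0.02 without WT 1. Of these 0 higher and 3 lower had an unadjusted p under 0.05, beside 2.82% and 1.75% of all genes. Vnn1, a pantetheinase under PPARA, was at -0.63 ± 0.19 (edgeR adjusted p = 0.633). Ces1d, a triglyceride hydrolase, was at 928, 777 and 1302 CPM in WT and 1695, 2354 and 1764 CPM in labelled null (0.95 ± 0.25, edgeR adjusted p = 0.497, DESeq2 adjusted p = 0.0246). Mfsd2a, a transporter of docosahexaenoic acid as lysophosphatidylcholine, was at 66.7, 241 and 120 CPM in WT and 215, 308 and 290 CPM in labelled null, with overlap (0.93 ± 0.40, edgeR adjusted p = 1). Angptl8, an inhibitor of lipoprotein lipase induced by feeding, was at 67.5, 20.0 and 85.7 CPM in WT and 335, 86.0 and 132 CPM in labelled null (1.67 ± 0.71, edgeR adjusted p = 1).

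Bile acid and xenobiotic genes, which CAR, PXR and FXR control, were likewise not past the test. Cyp7a1, the rate-limiting enzyme of bile acid synthesis, was at 281, 207 and 276 CPM in WT and 352, 789 and 339 CPM in labelled null, without overlap (0.95 ± 0.32, edgeR adjusted p = 0.740). Nr0b2, the repressor SHP that lowers Cyp7a1, was at -0.73 ± 0.25 with overlap (edgeR adjusted p = 0.773). Of 37 measured targets of CAR and PXR 20 were above 0, with a median of 0.02 that was -0.08 without labelled null 3, and Cyp3a41a was the member with the smallest p (-0.73 ± 0.26, edgeR adjusted p = 0.843). Of 37 glucose genes 26 were above 0, with a median of 0.13 (0.09 to 0.21 over the alternatives), led by Ppp1r3b. Khk, the fructose kinase, was at 358, 375 and 303 CPM in WT and 437, 577 and 540 CPM in labelled null (0.58 ± 0.20, edgeR adjusted p = 0.762).

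Stress and growth lists differed in sign. Genes of endoplasmic reticulum and integrated stress were below 0 in 27 of 31, with a median of -0.36, and 0 passed edgeR's test. Xbp1, a transcription factor of the unfolded protein response, was at 357, 293 and 269 CPM in WT and 164, 171 and 215 CPM in labelled null (-0.74 ± 0.20, edgeR adjusted p = 0.528). Hspa5, the chaperone BiP, was at 1709, 1059 and 539 CPM in WT and 618, 767 and 686 CPM in labelled null, so WT 1 was the highest. Without WT 1 the median of the list was -0.08. Cell cycle genes were above 0 in 19 of 23, with a median of 0.26, a range of 0.21 to 0.54 over the alternatives and 6 at an unadjusted p under 0.05, all higher, beside 2.82% of all genes. The highest of these medians was without WT 3. Rrm2, a ribonucleotide reductase subunit, was at 2.98, 4.96 and 3.15 CPM in WT and 6.74, 6.55 and 11.1 CPM in labelled null (1.15 ± 0.31, edgeR adjusted p = 0.528), and these transcripts were low in both groups.

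Ribosomal protein genes were below 0 in 46 of 48, with a median of -0.25, and 0 of them had an unadjusted p under 0.05. The median was -0.05 without WT 1. Nuclear genes of oxidative phosphorylation were below 0 in 37 of 42, with a median of -0.12 that was -0.0059 without WT 1 and -0.30 without labelled null 3. Members of such lists are not independent of each other. Of the acute phase genes 22 of 32 were below 0, with a median of -0.23 that was -0.40 without labelled null 3 and -0.09 without labelled null 1. The fibrinogen genes Fga, Fgb and Fgg were at -0.63 ± 0.24, -0.57 ± 0.22 and -0.62 ± 0.22, without overlap (edgeR adjusted p = 0.919, 0.949 and 0.888), and Saa4 was at 0.62 ± 0.19 (edgeR adjusted p = 0.638).

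Markers of cell types were compared by their summed levels. Hepatocyte markers summed to 116200 to 140700 CPM in WT and 91190 to 146900 CPM in labelled null. Macrophage markers summed to 436 to 687 and 522 to 763 CPM, endothelial markers to 475 to 632 and 458 to 638 CPM, and stellate cell and matrix markers to 2176 to 2495 and 2085 to 2436 CPM. The groups overlapped in each of these sums, and 0 of the markers in these lists passed edgeR's test. Of 19 measured hepatocyte markers 4 were above 0 and 15 below, with a median of -0.17 (-0.39 to -0.04 over the alternatives). At an unadjusted p under 0.05 (edgeR) were 0 higher and 4 lower of them, beside 2.82% and 1.75% of all genes. In the macrophage, endothelial and stellate lists 0 members were under it. In bulk tissue, fewer cells of a type and less RNA per cell cannot be told apart.

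Markers of pancreas and of lymphocytes and neutrophils were low. Of 16 pancreatic acinar markers 10 were at 0 in all 6 libraries, among them Prss1, Cpa1 and Pnlip, and the sum was 14.3 to 36.9 CPM in WT and 17.6 to 22.2 CPM in labelled null. Lymphocyte and neutrophil markers summed to 17.0 to 22.3 CPM in WT and 15.2 to 26.3 CPM in labelled null. The adipocyte list summed to 4951 to 7418 CPM in WT and 5305 to 10060 CPM in labelled null. The erythroid list summed to 159.5 to 386.1 and 231.2 to 361.6 CPM. Which cells the transcripts of these lists came from was not tested. Immediate early genes, which respond within minutes to stress and handling, spread widely within both groups, at 197 to 1338 CPM in WT and 251 to 1397 CPM in labelled null. Their part in the differences above was not tested.

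**Figure D5:**
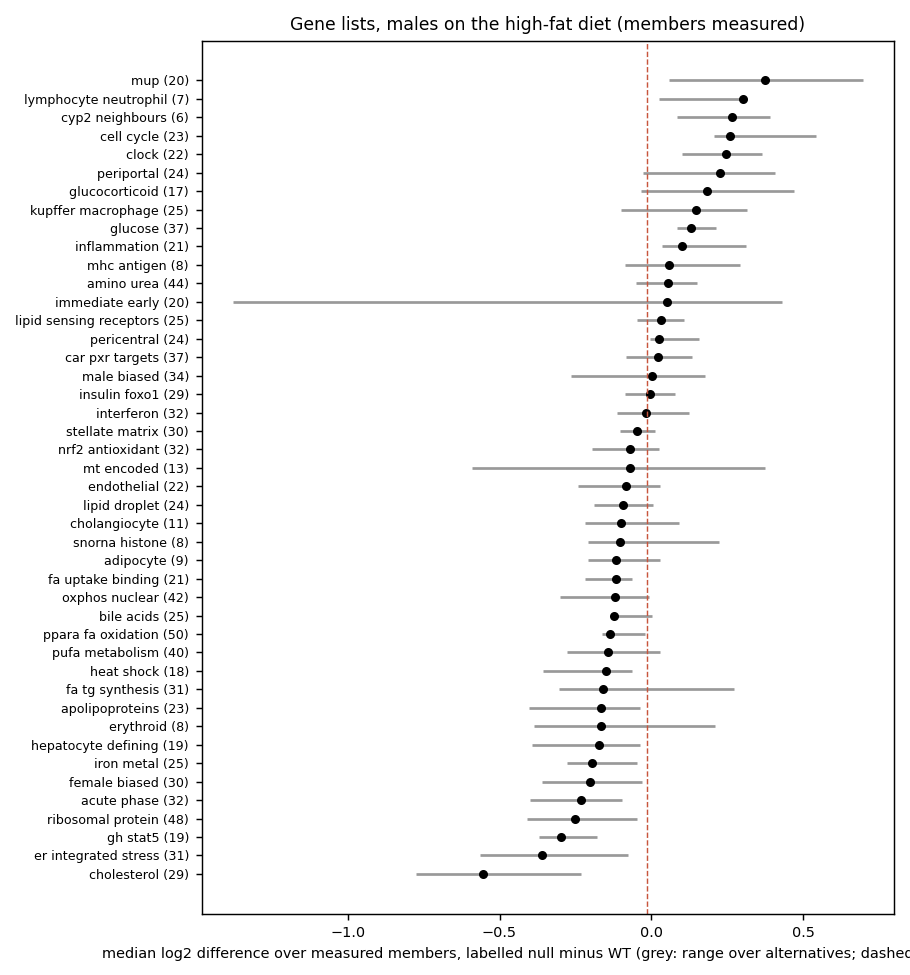
Median log2 difference, labelled null minus WT, over the measured members of each gene list with at least 5 of them (points; number measured in brackets), with the range over the alternatives (grey bars) and the median of all genes (dashed line). The cholesterol list has the lowest median, -0.55, and the immediate early list the widest range. The alternatives for these medians do not include DESeq2 or the replicate block.

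The difference in males on the high-fat diet was set against that in males on normal chow, which shares no library with it. In the interaction of genotype and diet 14873 genes were tested in 12 male libraries. Of these 0 passed edgeR's test, 691 or 4.65% had an unadjusted p under 0.05, and DESeq2 called 18, among them Slc45a3, Cyp2a4, Cyp2b9 and Ppp1r3b. Labelled null library 1 on chow stood apart, with 32.0% mitochondrial counts. Without it 1168 of 15139 genes, 7.72%, had an unadjusted p under 0.05 and 1 gene, 0.00661%, passed, the solute carrier Slc45a3 (2.29 ± 0.26, edgeR adjusted p = 0.00764). On the high-fat diet Slc45a3 was at 26.1, 23.7 and 26.7 CPM in WT and 42.3, 57.9 and 49.7 CPM in labelled null (0.97 ± 0.18, edgeR adjusted p = 0.145), and on chow without that library its difference was -1.31 ± 0.20 (edgeR adjusted p = 0.0440).

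For the genes that led on the high-fat diet, the chow values were as follows. Nat8f5 was at -0.46 ± 0.43 on chow with 5 libraries and Ppp1r3b at -1.08 ± 0.28 (edgeR adjusted p = 0.598 and 0.106). Without the library that stood apart their differences between diets were 3.03 ± 0.59 and 2.31 ± 0.37, which did not pass (edgeR adjusted p = 0.249 and 0.153). Socs2 was at -0.997 ± 0.544 and Cish at -2.24 ± 1.08 (edgeR adjusted p = 0.373 and 0.333). Cyp2a4 was at 2.51, 3.46 and 3.08 CPM in WT males on chow and at 693, 195 and 569 CPM in males labelled null. Without the library that stood apart, labelled null 1, Cyp2a4 rose by 6.99 ± 0.70 (log2, SE, edgeR adjusted p = 0.0121). The interaction for Cyp2a4 was -4.38 ± 0.78 (edgeR adjusted p = 0.522), and -4.05 ± 0.83 without that library (edgeR adjusted p = 0.378). Of the 24 named genes 20 had the same sign on chow with all 6 libraries, 83.3%, beside 64% of all genes. Without the library that stood apart 14 did, 58.3%, beside 60.9% of all genes. Across 14161 genes the 2 sets of differences correlated at r = 0.241, as a description over genes that are not independent.

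Against the same diet in females, 1 of 14799 genes, 0.00676%, passed edgeR's test for a difference in genotype effect. This was Cyp2b13, with a fitted difference of 14.39 ± 0.78 (edgeR adjusted p = 1.07e-07). Its size and SE depend on the prior count of edgeR's fit, not that of log2 CPM, because the female null libraries were at 0. In males 46, 39 and 82 of the 50, 40 and 85 WT counts were also counted for Rnf170-ps, as were all labelled null counts. The male side of this difference therefore rests on shared counts. At an unadjusted p under 0.05 were 401 genes or 2.71%, and sex went with RNA extraction and library kit, so they cannot be told apart. Dbp had the smallest p among genes whose genotype effect was lower in males than in females (-1.89 ± 0.41, edgeR adjusted p = 0.918). Its effect was -1.01 ± 0.29 in males and 0.89 ± 0.29 in females. Of the 24 named genes 16 had the same sign in females, 66.7%, beside 50% of all 13460 genes measured in both, and the effects correlated across genes at r = 0.0909.

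At the genes that led in males, the levels in females on the high-fat diet are given with all 12 libraries on this diet scaled together. Nat8f5 was at 0 CPM in all 3 female WT libraries and at 0, 0.4997 and 0 CPM in the female null ones. Socs2 was at 72.8, 94.7 and 26.9 CPM in female WT and 37.7, 78.0 and 22.8 CPM in female null, and overlapped. Cyp2a4 was at 464, 606 and 728 CPM in female WT and 1094, 1183 and 1263 CPM in female null (0.98 ± 0.39, edgeR adjusted p = 1). The difference between the sexes did not pass edgeR's test at Socs2 (-1.71, adjusted p = 1) or at Cyp2a4 (1.98 ± 0.55, adjusted p = 1).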

How the data were processed

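Liver total RNA was sequenced in 24 libraries, 3 per group; the 6 male libraries on the high-fat diet are compared here. The labels' protocols give RNeasy Plus Universal and TruSeq Total RNA for males, and Trizol and NEB Next Ultra RNA for females. The authors deposited raw counts per gene symbol, 1 table per sex, in the unit counts. Per the submitters' processing notes, FastQC, Trimmomatic, GSNAP, Subread and edgeR were used with build GRCm38.p5; settings and strandedness were not given in the sources used here. Groups follow the titles, also in the 6 female libraries whose genotype field says otherwise. Counts of the 1806 duplicated symbols were summed, and 25 symbols turned into dates (up to 0.16% of any library) counted towards totals only.

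With edgeR 4.0.16 (R 4.3.3) the 6 libraries were fitted alone, with group means, TMM scaling, the filterByExpr filter (minimum count 10), robust dispersions and the quasi-likelihood test. Benjamini-Hochberg adjustment ran over all genes tested, and genes under 0.05 were called. The sex and diet differences were fitted over 12 libraries each. The biological coefficient of variation was 0.233. CPM used TMM factors and log2 CPM a prior count of 2. The SE of a log2 difference is its size divided by the square root of the test's F statistic. Intervals are 95% and were built from this SE. The code was tested on simulated data. Tried as alternatives were DESeq2 1.42.0, RLE scaling, no low-count filter, a replicate block, the first of duplicated symbols, other libraries in the fit and leaving out each library. List medians were taken under part of these only, and not under DESeq2 or the replicate block.

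The members and the 46 lists (1275 entries) were chosen with earlier results of these data known. List symbols older than those of the tables were updated, and 3 (Cyp2c23, Selenos, Ahsp) matched no row. Named by rule were the targeted genes; up to 12 called genes each way with the largest change, no overlap between groups, a real gene name and a mean log2 CPM of 1 or more, filled to 12 by smallest p; and, per list, called members up to 3 or else that with the smallest p. In the 2 other comparisons the rule named up to 4 called genes each way, or else the smallest p each way. Other genes with values in the text were chosen after their values were seen. Gene positions are from GENCODE vM21 (GRCm38). Depth limits the low genes: with 3 libraries per group, differences under the spread between libraries were not detectable. Of the clock list, 1 member is counted but not reported here by name.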

Additional observations from a re-analysis of the deposited data

Results flagged for a closer look

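The fitted effect of the labelled genotype on Cyp2b13 differed between the sexes on the high-fat diet. The difference was 14.39 ± 0.78 on the log2 scale (male minus female effect, edgeR adjusted p = 1.07e-07). In females the gene had 2288 counts over the 3 WT libraries and 0 over the 3 null libraries. The size and SE of the fitted value therefore depend on the prior count of the fit. In males it had 50, 40 and 85 counts in WT and 64, 37 and 45 in labelled null, of which 46, 39 and 82 and 64, 37 and 45 were also counted for the intronic pseudogene Rnf170-ps. Sex went with RNA extraction and library kit.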

How the results depend on the processing

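The 3 edgeR calls between labelled null and WT males became 147 with no filter on low counts and 56 with DESeq2, and 0 with all 12 male libraries or with 11 of them in the fit. With 1 library left out the count ran from 0 to 5. It stayed at 3 with RLE scaling and with the first row of duplicated symbols. The sex difference, 1 gene, became 7 with no filter and 2 with DESeq2 and ran from 1 to 2 with 1 library left out; the second gene, without female WT library 1, was Slc45a3. The diet difference, 0 genes, became 18 with DESeq2 and ran from 0 to 1 with 1 library left out. Of the log2 differences, 3 crossed 0 with 1 library left out, and none of these had passed the test. Cyp2b13 ran from -0.16 (without labelled null 3) to 0.048 (without labelled null 2), Cela1 from -0.57 (without WT 3) to 0.19 (without WT 1), and Spp1 from -0.89 (without WT 1) to 0.066 (without WT 2).

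Over the settings run, values of single named genes gave 732 with the same direction and side of the threshold, 59 that passed only under the alternative, 15 that no longer passed and the 2 reversals of Cela1 and Spp1. Of the list medians, 387 moved by less than 1 SD between libraries and 27 by more. Why these values moved was not tested.

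Replicate numbers did not pair the libraries: same-numbered libraries correlated in their deviations from the group means at r = -0.07, 0.15 and -0.47, and WT 3 went best with labelled null 1 (0.43). With the replicate block the male comparison gave 2 calls, Cyp2a4 and Nr1d1, of which 0 were among the 3; the sex difference gave 1 and the diet difference 0. Nat8f5 and Socs2 had an adjusted p of 0.0833 there.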
